A study of Mus musculus with 8 samples.

Results

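The genes described are markers of 2 fibroblast states of the pancreas, measured by RNA-Seq in whole pancreas. Acta2, Tagln, Myl9, Postn and Fap stand for the myofibroblastic state, and Pdgfra, Dpt, Clec3b, Ly6c1 and Has1 for the inflammatory state. They were found by their symbols among the 15047 genes of the deposited values, where 9 of the 10 have a value. Has1, which makes hyaluronan, was not analysed here, so the inflammatory set holds 4 genes and the myofibroblastic set 5. Tissue came from 8 male mice. Of these, 3 were C57BL/6 WT mice on a low-fat diet (LFD) and 3 were C57BL/6 WT mice whose high-fat diet (HFD) drew 60% of its calories from fat. The other 2 were leptin-deficient ob/ob mice (C57BL/6J), for which the study's results give normal chow. Mice were put on their diets at 4 weeks of age, and the diet lasted 10 weeks. According to the study, the pancreas of these mice carried a transplant of tumor organoids (mT) grown from a mouse model of pancreatic cancer that carries Cre under the Pdx1 promoter. The labels name the tissue only as pancreas, so host tissue and graft cannot be told apart. The ob/ob mice differ from LFD in chow as well as in leptin. The study's methods also word their strain differently, while its results call the mice of all groups C57BL6/J. In bulk tissue, fewer cells of a type and less RNA per cell also cannot be told apart.

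Fibroblasts build the collagen-rich stroma that surrounds pancreatic lesions. Those close to tumor cells are typically driven by TGF-beta, assemble actin stress fibers and contract the matrix, which is the myofibroblastic state. Others, at a distance from tumor cells, respond to IL1 through NF-kB and JAK/STAT3, secrete cytokines and chemokines and keep surface proteins of resting fibroblasts, which is the inflammatory state. The actin and myosin genes of the first state are also made by vascular smooth muscle and pericytes, and Ly6c1 is also made by endothelial cells and some leukocytes.

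All values are rlog values, which are read counts on a log2 scale after correction for library size, with differences at low counts shrunken, so that a difference of 1 stands for a doubling. They are not scaled by gene length, so levels are compared between mice and not between genes. With limma, 0 of 15047 genes passed an adjusted p-value of 0.05 between any groups, and the smallest was 0.0864 when HFD was compared with LFD, 0.135 when ob/ob was, 0.883 between ob/ob and HFD and 0.0598 for the mean of both obese groups against LFD. Before adjustment, 2985, 2831, 588 and 3825 genes had a p-value under 0.05 in these comparisons. The mean rlog value of 26 acinar genes, which code for digestive enzymes and other secreted products, was between 17.6 and 18.2 in the LFD mice. The HFD mice, replicates 1 to 3 in order, had 17.9, 15.8 and 13.9, and the ob/ob mice 17.2 and 14.2. HFD replicate 1 and ob/ob replicate 1 were thus close to LFD in acinar transcripts, while HFD replicate 3 and ob/ob replicate 2 were the poorest in them.

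Of the contractile genes, Acta2 and Tagln had higher means in both obese groups than in LFD, while the means of Myl9 were within 0.27 of LFD, and none of them passed the adjusted threshold. Acta2 codes for smooth muscle alpha actin, the standard protein marker of myofibroblasts, and lies on the minus strand of chromosome 19 of GRCm38 (34241090 to 34255590, Gencode M21). Its rlog value was 7.72, 8.62 and 7.61 in the LFD mice, 7.87, 8.92 and 9.29 in the HFD mice, and 9.24 and 8.97 in the ob/ob mice. Both ob/ob mice were above all LFD mice, whereas HFD replicate 1 was below the highest LFD mouse. The difference was 0.71 (standard error 0.39, adjusted p = 0.33 with limma) for HFD and 1.13 (standard error 0.44, adjusted p = 0.242 with limma) for ob/ob, each against LFD. Tagln codes for transgelin, an actin-binding protein of contractile cells, and lies on the minus strand of chromosome 9 (45929619 to 45936058). It was at 7.69, 8.22 and 7.34 in LFD, at 8.11, 8.84 and 8.98 in HFD, and at 9.33 and 8.51 in ob/ob. HFD replicate 1 was again below the highest LFD mouse, and the remaining 4 obese mice were above it. Tagln was higher by 0.89 in HFD (standard error 0.33, unadjusted p = 0.0261, adjusted p = 0.216 with limma) and by 1.17 in ob/ob (standard error 0.37, unadjusted p = 0.0124, adjusted p = 0.209 with limma). Myl9 codes for a regulatory light chain of smooth muscle and non-muscle myosin and lies on the plus strand of chromosome 2 (156775420 to 156781658). Its values of 7.13, 7.88 and 6.85 in LFD spanned all of the values in HFD (6.85, 7.61 and 7.76) and ob/ob (7.81 and 7.30). Its 95% interval for HFD against LFD reached from -0.66 to 0.91 and that for ob/ob from -0.61 to 1.14. Without HFD replicate 1, Acta2 differed by 1.13 (adjusted p = 0.0405 with limma) and Tagln by 1.16 (adjusted p = 0.0389) between HFD and LFD, and for both obese groups the adjusted p-values with limma were 0.0226 and 0.0215. In that fit 18.7% of all genes passed the adjusted threshold for HFD, 0.591% for ob/ob and 22.1% for both groups. Once the mean acinar value of each mouse entered the fit as a covariate, Acta2 differed by 0.32 for HFD and 0.70 for ob/ob, and Tagln by 0.79 and 1.06. Without the 2 mice poorest in acinar transcripts, HFD replicate 3 and ob/ob replicate 2, an alternative chosen after seeing the data, the difference of Acta2 was 0.42 for HFD and 1.26 for ob/ob, and that of Tagln 0.72 and 1.58.

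**Figure D1:**
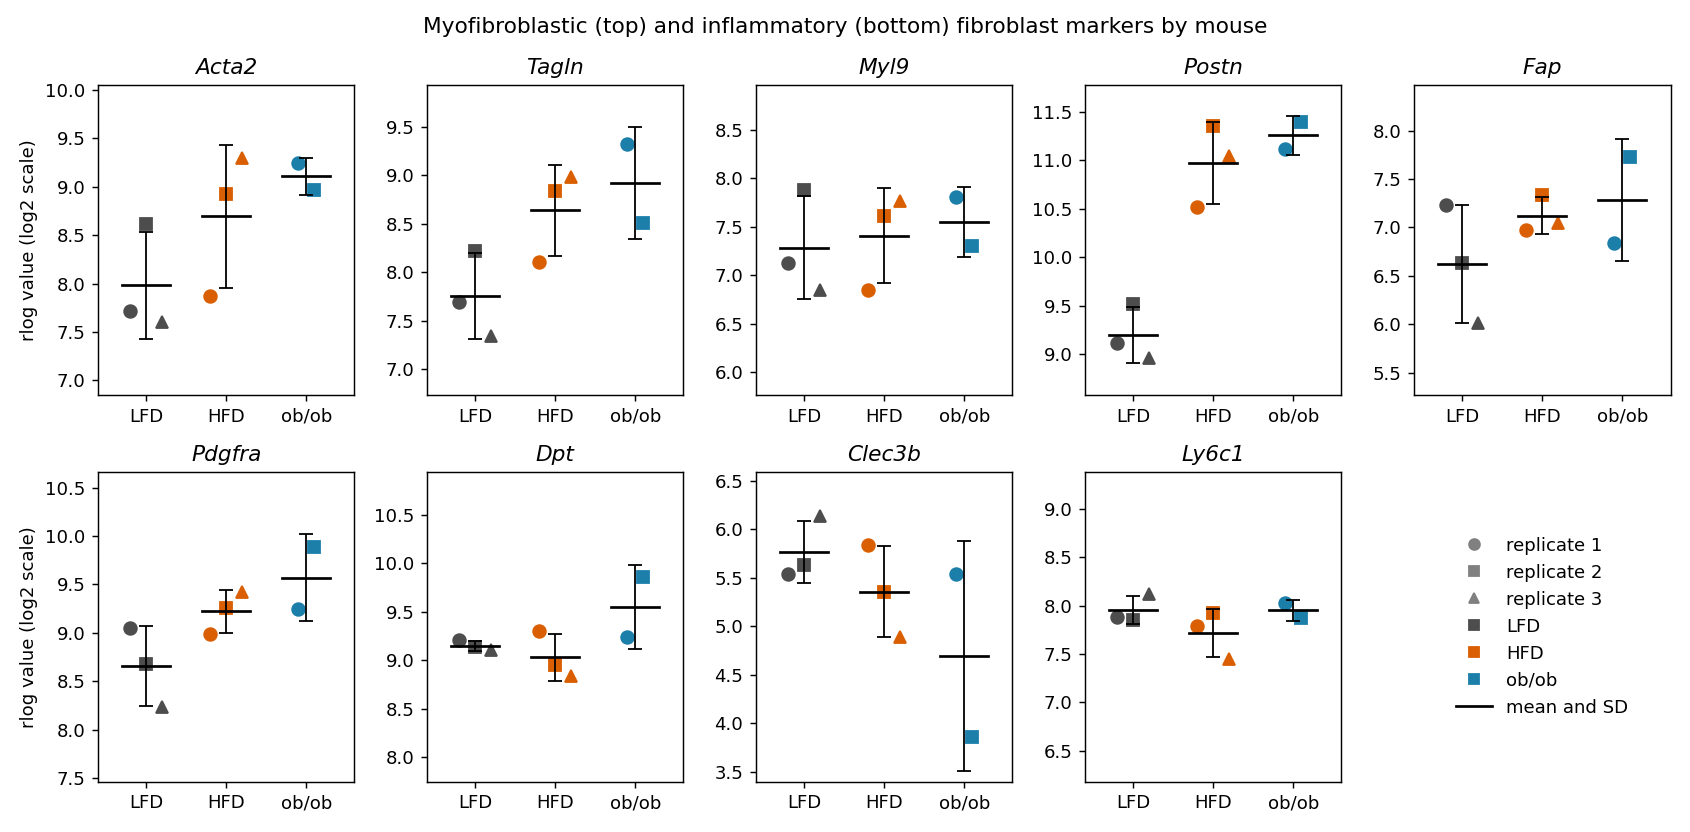
Rlog value (log2 scale, vertical axis) of 9 marker genes in 8 mice, with myofibroblastic genes in the top row and inflammatory genes in the bottom row. Each symbol is 1 mouse, lines and bars are the mean and SD of the group, and every panel spans the same range of log2 units. Only Postn has all 5 obese mice above all LFD mice, and Clec3b has its lowest value, 3.86, in ob/ob replicate 2.

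Contractile genes are classical targets of serum response factor (SRF), which binds the CArG box, a pair of C and a pair of G around 6 bases of A or T. The promoters of Acta2 and Myl9 are shown because they carry such boxes within 250 bases before the RefSeq start, and that of Postn because it is the member with the largest difference and carries none. RefSeq gives Postn 2 starts, neither with a box, and the one with a TATA-type motif is shown. Each is given 5' to 3' with 250 bases before the start of transcription and 30 after it (GRCm38.p6, RefSeq). Capitals mark CArG boxes, with up to 1 of the 6 inner bases other than A or T, and the TATATAA motif, of the kind found before many starts.
Acta2, chr19:34255344-34255623, minus strand: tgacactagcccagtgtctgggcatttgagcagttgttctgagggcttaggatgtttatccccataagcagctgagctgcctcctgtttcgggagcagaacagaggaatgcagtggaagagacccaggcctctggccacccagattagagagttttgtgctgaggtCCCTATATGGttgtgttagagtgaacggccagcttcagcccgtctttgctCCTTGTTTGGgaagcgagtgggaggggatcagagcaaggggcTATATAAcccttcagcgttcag
Myl9, chr2:156775214-156775493, plus strand: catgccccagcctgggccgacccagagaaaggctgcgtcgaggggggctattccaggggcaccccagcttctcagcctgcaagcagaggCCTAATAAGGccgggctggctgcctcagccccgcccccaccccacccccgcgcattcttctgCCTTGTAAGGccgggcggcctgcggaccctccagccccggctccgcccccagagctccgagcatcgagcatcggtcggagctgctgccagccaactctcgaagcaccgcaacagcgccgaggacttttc
Postn, chr3:54360857-54361136, plus strand: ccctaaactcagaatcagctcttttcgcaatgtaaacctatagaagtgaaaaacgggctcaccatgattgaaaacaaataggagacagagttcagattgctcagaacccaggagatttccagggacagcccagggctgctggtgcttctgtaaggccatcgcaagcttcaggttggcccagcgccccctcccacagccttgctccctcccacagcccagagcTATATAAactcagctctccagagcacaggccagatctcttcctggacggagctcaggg
Acta2 had 2 CArG boxes with 1 inner mismatch, 84 and 34 bases before the start, and Myl9 had 1 exact box 161 bases and 1 with a mismatch 99 bases before the start. Among 32851 promoter windows of mouse genes, 1.63% held an exact CArG box and 9.98% a box with up to 1 mismatch on either strand. TATATAA, searched on both strands, was found in 3.24% of windows, and lay 28 bases before the start of Postn and 8 bases after the RefSeq start of Acta2, which differs from the Gencode end of the gene given above. RefSeq windows were found for 7 of the 10 members, and Myl9 was the only one of them with an exact box. A match of letters is a description of the sequence and does not show that SRF binds there.

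Postn had the largest difference of all members, and was higher in each of the 5 obese mice than in each LFD mouse. It codes for periostin, a secreted matrix protein that binds integrins and is made by activated fibroblasts, and lies on the plus strand of chromosome 3 (54361109 to 54391037). Its rlog value was 9.11, 9.52 and 8.96 in LFD, 10.52, 11.35 and 11.05 in HFD, and 11.12 and 11.40 in ob/ob. The gap between the highest LFD and the lowest obese mouse was wider than the range of the LFD mice, also for HFD replicate 1. The difference from LFD was 1.78 for HFD (standard error 0.25, unadjusted p = 6.64e-05, adjusted p = 0.143 with limma) and 2.06 for ob/ob (standard error 0.28, unadjusted p = 4.99e-05, adjusted p = 0.135 with limma). On the linear scale these are ratios of 3.42 (95% interval 2.32 to 5.06) and 4.18 (2.70 to 6.47). Both comparisons use the same LFD mice. By unadjusted p-value Postn ranked 7 of 15047 genes for HFD and 3 for ob/ob. For both obese groups against LFD the difference was 1.92 (standard error 0.22, adjusted p = 0.0598 with limma), again at rank 3. With the acinar covariate it was 1.53 for HFD and 1.80 for ob/ob, with adjusted p-values of 0.103 and 0.078 with limma, and without the 2 acinar-poor mice it was 1.74 and 1.92. Without HFD replicate 1 the adjusted p-value of Postn with limma was 0.00924 between HFD and LFD, 0.0439 between ob/ob and LFD and 0.0113 for both obese groups. In that fit 18.7%, 0.591% and 22.1% of all genes passed the adjusted threshold in these comparisons. With only LFD and ob/ob mice in the fit, the adjusted p-value of Postn with limma was 0.0499, and 38 genes passed. The adjusted p-values given here for alternatives are all below those of the main fit. Some other alternatives raised them above the main fit, for HFD, for ob/ob and for both obese groups against LFD. Over all alternatives the difference of Postn was at least 1.53 for HFD and 1.80 for ob/ob.

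Fap, the other non-contractile gene of the myofibroblastic set, overlapped between all groups. It codes for fibroblast activation protein, a surface protease of activated fibroblasts, and lies on the minus strand of chromosome 2 (62500943 to 62574075). It was at 7.23, 6.63 and 6.01 in LFD, at 6.97, 7.34 and 7.05 in HFD, and at 6.84 and 7.73 in ob/ob. The LFD mice alone spread over more than 1 log2 unit, and LFD replicate 1 was above HFD replicate 1, HFD replicate 3 and ob/ob replicate 1. The difference was 0.49 for HFD (95% interval -0.31 to 1.30) and 0.66 for ob/ob (-0.24 to 1.56), with adjusted p-values of 0.438 and 0.363 with limma.

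The 4 inflammatory genes did not move together. Pdgfra codes for a receptor of platelet-derived growth factors found on most resting and inflammatory fibroblasts, and lies on the plus strand of chromosome 5 (75152292 to 75198215). It was at 9.05, 8.68 and 8.24 in LFD, at 8.99, 9.26 and 9.43 in HFD, and at 9.25 and 9.89 in ob/ob. Both ob/ob mice and HFD replicates 2 and 3 were above all LFD mice, and HFD replicate 1 was not. Pdgfra was higher by 0.57 in HFD (standard error 0.26, unadjusted p = 0.0583, adjusted p = 0.267 with limma) and by 0.91 in ob/ob (standard error 0.29, unadjusted p = 0.0124, adjusted p = 0.209 with limma). With the acinar covariate these differences were 0.24 and 0.57. For both obese groups against LFD the difference was 0.74 (adjusted p = 0.128 with limma), and without HFD replicate 1 it was 0.80 (adjusted p = 0.0428). Dpt codes for dermatopontin, a small matrix protein that binds decorin and collagen fibrils and marks fibroblasts of many resting tissues, and lies on the plus strand of chromosome 1 (164796644 to 164824266). It was at 9.21, 9.14 and 9.10 in LFD, at 9.30, 8.95 and 8.84 in HFD, and at 9.24 and 9.85 in ob/ob. The LFD mice lay within 0.11 of each other, and ob/ob replicate 1 exceeded the highest of them by less than that. The difference was -0.12 for HFD (95% interval -0.59 to 0.35) and 0.40 for ob/ob (-0.12 to 0.92).

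Clec3b and Ly6c1 had lower or equal means in the obese groups. Clec3b codes for tetranectin, a secreted plasminogen-binding lectin, and lies on the plus strand of chromosome 9 (123150946 to 123157432). It was at 5.54, 5.63 and 6.13 in LFD, at 5.83, 5.35 and 4.89 in HFD, and at 5.53 and 3.86 in ob/ob. The lowest HFD and the lowest ob/ob mouse are those poorest in acinar transcripts, while ob/ob replicate 1 lay just under the lowest LFD mouse. The difference was -0.41 for HFD (95% interval -1.44 to 0.63) and -1.07 for ob/ob (-2.23 to 0.09, adjusted p = 0.284 with limma). It rested on ob/ob replicate 2, without which the value for ob/ob was -0.23. With the acinar covariate the difference of Clec3b was 0.31 for HFD and -0.30 for ob/ob.

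Ly6c1 codes for a small membrane-anchored protein of the Ly6 family and lies on the minus strand of chromosome 15 (75044018 to 75048830). It was at 7.89, 7.85 and 8.12 in LFD, at 7.79, 7.92 and 7.44 in HFD, and at 8.03 and 7.87 in ob/ob. The means of LFD and ob/ob were both 7.95, and the difference for HFD was -0.23 (95% interval -0.67 to 0.20). Ly6c1 has a close copy, Ly6c2 (minus strand of chromosome 15, 75108158 to 75111970), a marker of monocytes, and reads from both may be divided between them with error. The coding sequences of both have 393 bases and differ at 9 of them, an identity of 97.7%, and the longest stretch without a difference has 188 bases. The first 90 coding bases, which hold 6 of the 9 differences, are shown with the differing bases in capitals (GRCm38, Gencode M21 transcripts).
Ly6c1: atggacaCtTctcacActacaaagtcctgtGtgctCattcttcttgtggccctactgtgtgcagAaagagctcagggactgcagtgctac
Ly6c2: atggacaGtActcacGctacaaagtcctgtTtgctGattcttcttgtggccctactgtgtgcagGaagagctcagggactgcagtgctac
Ly6c2 was at 4.38, 5.42 and 4.59 in LFD, at 4.55, 4.998 and 5.77 in HFD, and at 4.70 and 4.96 in ob/ob. Its groups overlapped, with differences of 0.31 for HFD and 0.03 for ob/ob against LFD.

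Counted together, all 5 myofibroblastic genes had a positive difference in HFD and in ob/ob, and 52.4% and 53.1% of all genes did so. For both obese groups together all 5 were again positive, beside 53.5% of all genes, and between ob/ob and HFD all 5 were higher in ob/ob, beside 51.7%. At an unadjusted p-value under 0.05, 2 of 5 (Tagln and Postn) were higher in HFD, where 11.5% of all genes were, and 3 of 5 (Acta2, Tagln and Postn) in ob/ob, where 11.6% were. Of the 4 inflammatory genes, none was called in HFD at that level, and Pdgfra was in ob/ob. No member was lower at that level, while 8.35% of all genes were lower in HFD and 7.18% in ob/ob. For both obese groups against LFD, Acta2, Tagln, Postn and Pdgfra were higher at an unadjusted p-value under 0.05, beside 14.5% of all genes, and none was lower, beside 10.9%. Values of HFD and LFD did not overlap for 1 member, Postn, and 12.9% of all genes were higher without overlap. For ob/ob and LFD, Acta2, Tagln, Postn, Pdgfra and Dpt were higher without overlap, beside 24.1% of all genes, and Clec3b was lower, beside 21.8%. Only Postn had all 5 obese mice above all LFD mice, as did 9.40% of all genes. The median difference of the 5 myofibroblastic genes was 0.71 in HFD and 1.13 in ob/ob, and that of the 4 inflammatory genes -0.18 and 0.20, beside 0.03 and 0.04 over all genes. Centring each mouse on its median lowered the myofibroblastic medians to 0.63 and 1.04. The acinar covariate lowered them to 0.32 and 0.70, with 1 of 5 higher at an unadjusted p-value under 0.05 in HFD and 2 of 5 in ob/ob. In the covariate fit, 1567 and 1494 of 15047 genes were called at that level, in either direction.

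**Figure D2:**
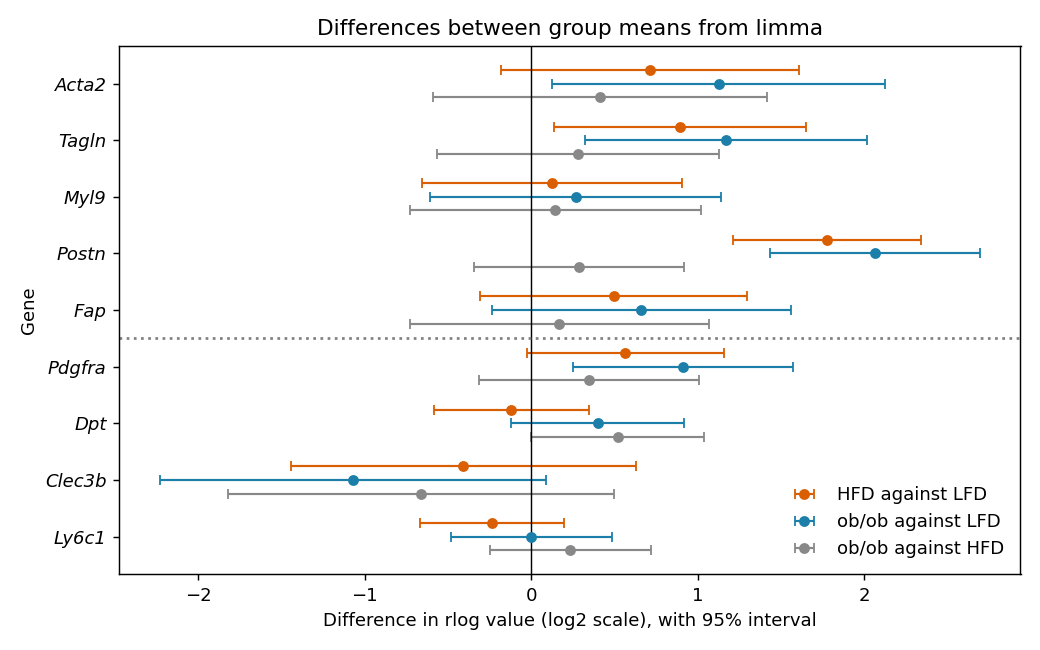
Difference between group means in rlog value (log2 scale, horizontal axis) for each gene, with 95% intervals from limma. Colors give the comparison, and the dotted line parts the myofibroblastic genes above from the inflammatory genes below. The intervals of Postn against LFD, from 1.21 to 2.34 for HFD and from 1.43 to 2.69 for ob/ob, lie farthest from 0, and all 9 intervals of ob/ob against HFD include 0.

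Between the obesity models, no member differed at an unadjusted p-value under 0.05, beside 2.28% of all genes higher and 1.63% lower in ob/ob. All 9 adjusted p-values were 0.9996 with limma. The nearest was Dpt, higher by 0.52 in ob/ob than in HFD (95% interval -0.00 to 1.04, unadjusted p = 0.0506). The interval for Postn was from -0.34 to 0.92, that for Acta2 from -0.59 to 1.41 and that for Clec3b from -1.82 to 0.50, so differences of nearly 1 log2 unit or more between the models are within the error of 3 against 2 mice.

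The pattern over the 8 mice was compared between genes by the root mean square (RMS) difference of rlog values after centring each gene on its own mean. Among 16 pairs of members within a set and 20 across sets, the closest was Fap and Pdgfra, at 0.196, which belong to different sets. Acta2 and Tagln followed at 0.229 and Dpt and Ly6c1 at 0.294, and Postn and Clec3b were farthest apart at 1.47. Pairs within a set had a median of 0.574 and pairs across sets of 0.713, with ranges that overlapped. The median is lower within a set, but the inflammatory set splits, since Pdgfra and Clec3b were at 1.09. Over the 11824 other genes whose mean over the mice was at least 5, those nearest to the mean pattern of the myofibroblastic set were Angpt2 (0.102), Ehd4 (0.127), Rgs4 (0.132), Rhog (0.149) and Ifi209 (0.155). Nearest to the inflammatory set, whose mean is almost flat, were Vps41, Zfp944, Zc3h14, Sccpdh and Thap12, at 0.0461 to 0.0667. The gene closest to both Pdgfra (0.075) and Fap (0.159) was Sulf2, and the gene closest to Postn was Aif1 (0.197), a marker of macrophages. The mice of 1 group share diet or genotype and the acinar-poor mice share low acinar content, and these likenesses are descriptions only.

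The mean of the 5 myofibroblastic genes was 7.78, 8.17 and 7.35 in the LFD mice, 8.06, 8.81 and 8.83 in the HFD mice, and 8.87 and 8.78 in the ob/ob mice. HFD replicate 1 lay below the highest LFD mouse, and the remaining 4 obese mice lay above all LFD mice and close to each other. The mean of the 4 inflammatory genes lay between 7.65 and 8.01 in all 8 mice, with group means of 7.88 ± 0.05 (LFD, SD, n = 3), 7.83 ± 0.17 (HFD, SD, n = 3) and 7.94 ± 0.10 (ob/ob, SD, n = 2). This flat mean joins genes that went in opposite ways, as Pdgfra was higher and Clec3b lower in the obese means, and the median of the 4 genes was higher by 0.44 in ob/ob than in LFD. The myofibroblastic minus the inflammatory mean, of which only the change between mice can be read, had a mean of -0.11 ± 0.45 (SD) for LFD mice, of 0.74 ± 0.57 for HFD mice and of 0.88 ± 0.04 for ob/ob mice.

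The members were also set against 13 pan-fibroblast genes such as the collagen genes Col1a1 and Col1a2. The mean of these 13 genes was 9.33, 9.24 and 8.93 in LFD, 9.68, 10.31 and 10.75 in HFD, and 10.16 and 11.21 in ob/ob. The lowest obese mouse thus exceeded the highest LFD mouse. Of the 13 genes, 7 were higher in HFD and 11 in ob/ob at an unadjusted p-value under 0.05, and none was lower. Of all genes, 11.5% were higher and 8.35% lower in HFD at that level, and 11.6% and 7.18% in ob/ob. Col1a1 was at 9.79, 9.28 and 8.89 in LFD and between 10.6 and 12.5 in the obese mice (difference for both obese groups 2.17, adjusted p = 0.0853 with limma). Dcn, which codes for decorin, overlapped between groups, at 12.09, 11.97 and 12.17 in LFD and between 11.4 and 12.9 in the obese mice. Relative to the pan-fibroblast mean of the same mouse, the myofibroblastic mean overlapped between all groups, with -1.40 ± 0.29 (SD) for LFD mice, -1.68 ± 0.22 for HFD mice and -1.86 ± 0.80 for ob/ob mice. The inflammatory mean relative to it was -1.40, -1.41 and -1.03 in LFD, -1.70, -2.44 and -3.10 in HFD, and -2.14 and -3.34 in ob/ob, so all 5 obese mice were below all LFD mice. Myl9, Pdgfra, Dpt, Clec3b and Ly6c1, 5 of the 9 members, were each lower in all 5 obese mice on this scale, but so were 60.2% of all genes, as any gene that does not follow the collagens becomes lower. Postn was the one member higher in HFD than in LFD without overlap on this scale, at 0.84, 1.04 and 0.29 against -0.21, 0.28 and 0.03, beside 0.518% of all genes, and in ob/ob (0.96 and 0.19) it overlapped with LFD. No member was higher in ob/ob than in LFD, or than in HFD, without overlap on this scale, beside 0.598% and 0.651% of all genes. Myl9, Pdgfra, Dpt, Clec3b and Ly6c1 were lower without overlap in HFD alone, beside 63.0% of all genes, and together with Fap in ob/ob alone, beside 84.8%, while none was between ob/ob and HFD, beside 9.18%.

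**Figure D3:**
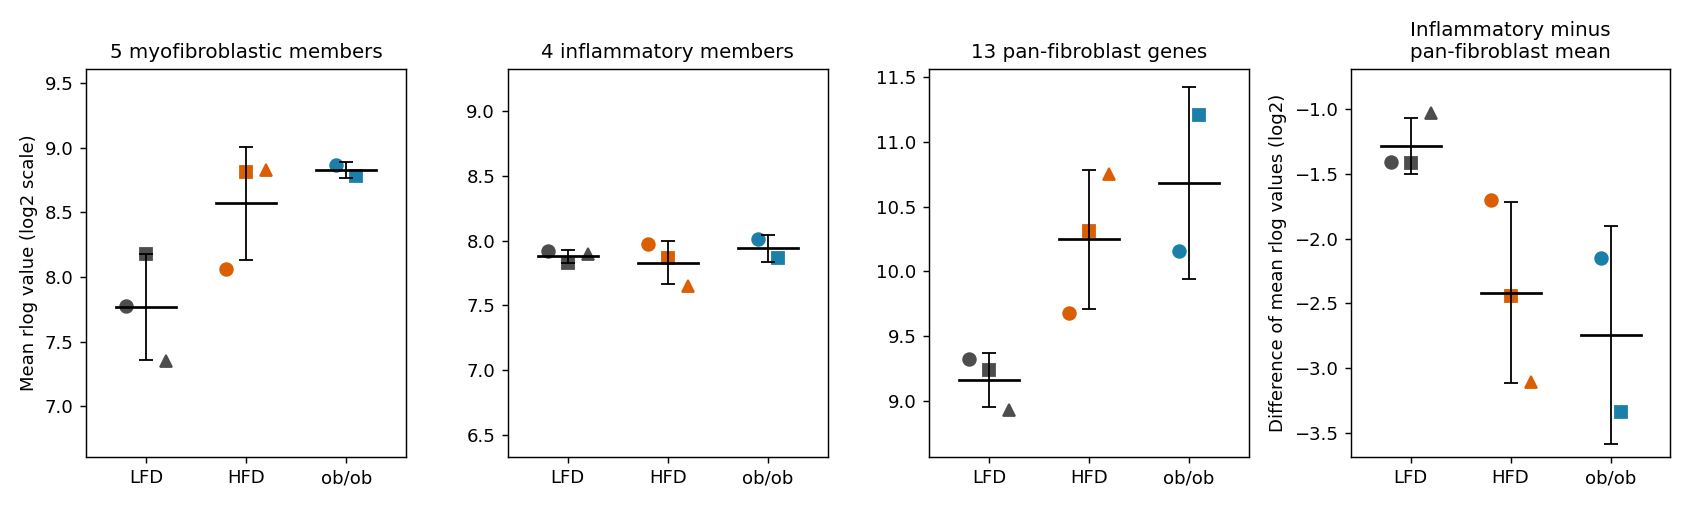
Mean rlog value (log2 scale, vertical axis) of the 5 myofibroblastic, 4 inflammatory and 13 pan-fibroblast genes, and the inflammatory minus the pan-fibroblast mean, in each mouse by group. Symbols are mice as in the plot of single genes (circle, square and triangle for replicates 1 to 3), with mean and SD. The inflammatory mean stays between 7.65 and 8.01 while the pan-fibroblast mean is between 8.93 and 9.33 in LFD and between 9.68 and 11.21 in obese mice.

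Wider lists of both states were counted in the same fits, beside 11.5% of all genes higher and 8.35% lower in HFD and 11.6% and 7.18% in ob/ob. Of 20 further myofibroblastic genes, 12 had a higher and 1 a lower value in HFD at an unadjusted p-value under 0.05, against 15 and 1 for ob/ob, with median differences of 1.10 and 1.33. The largest differences of both obese groups from LFD were those of Tnc (tenascin C, 1.96), Col11a1 (a chain of fibrillar collagen XI, 1.88) and Cthrc1 (a secreted protein of activated fibroblasts, 1.87), with adjusted p-values of 0.119, 0.081 and 0.113 with limma. Col11a1 was at 5.09, 4.61 and 4.05 in LFD, at 5.38, 5.498 and 5.66 in HFD, and at 6.95 and 7.88 in ob/ob, so that none of the 3 groups overlapped with another. With the acinar covariate 5 of the 20 were higher in HFD and 6 in ob/ob, where 1567 and 1494 of all genes were called in either direction. Without the 2 acinar-poor mice the median differences were 0.93 for HFD and 0.90 for ob/ob. Without HFD replicate 1, 13 were higher and 1 lower in HFD at an adjusted p-value under 0.05 with limma, in a fit where 18.7% of all genes passed in either direction. In the same fit 8 of the 13 pan-fibroblast genes were higher, and of the wider inflammatory list 6 genes were higher and 1 lower.

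Of 20 further inflammatory genes, 6 had a higher and 1 a lower value in HFD at an unadjusted p-value under 0.05, against 5 and 2 for ob/ob. Their median differences were 0.77 and 0.16. Of all genes, 11.5% were higher and 8.35% lower in HFD at that level, and 11.6% and 7.18% in ob/ob. The largest differences of both obese groups were those of Has2 (1.90), a hyaluronan synthase like Has1, and of the chemokine genes Ccl7 (1.73) and Ccl2 (1.51), whose products draw monocytes. Has2 was at 5.58, 5.91 and 4.85 in LFD, at 5.81, 7.67 and 7.92 in HFD, and at 6.78 and 8.34 in ob/ob, and HFD replicate 1 was inside the LFD range. Ccl2 was at 4.64, 5.01 and 4.59 in LFD and between 5.52 and 7.02 in the obese mice, and all 5 were above LFD (adjusted p = 0.0892 with limma). Gsn, which codes for the actin-severing protein gelsolin and was picked after its values were seen, was lower in all 5 obese mice, between 11.4 and 11.8, than in LFD, between 11.9 and 12.2 (difference -0.54, adjusted p = 0.116 with limma). Chemokine and hyaluronan genes are also made by leukocytes and mesothelial cells, so they do not place the transcripts in fibroblasts.

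**Figure D4:**
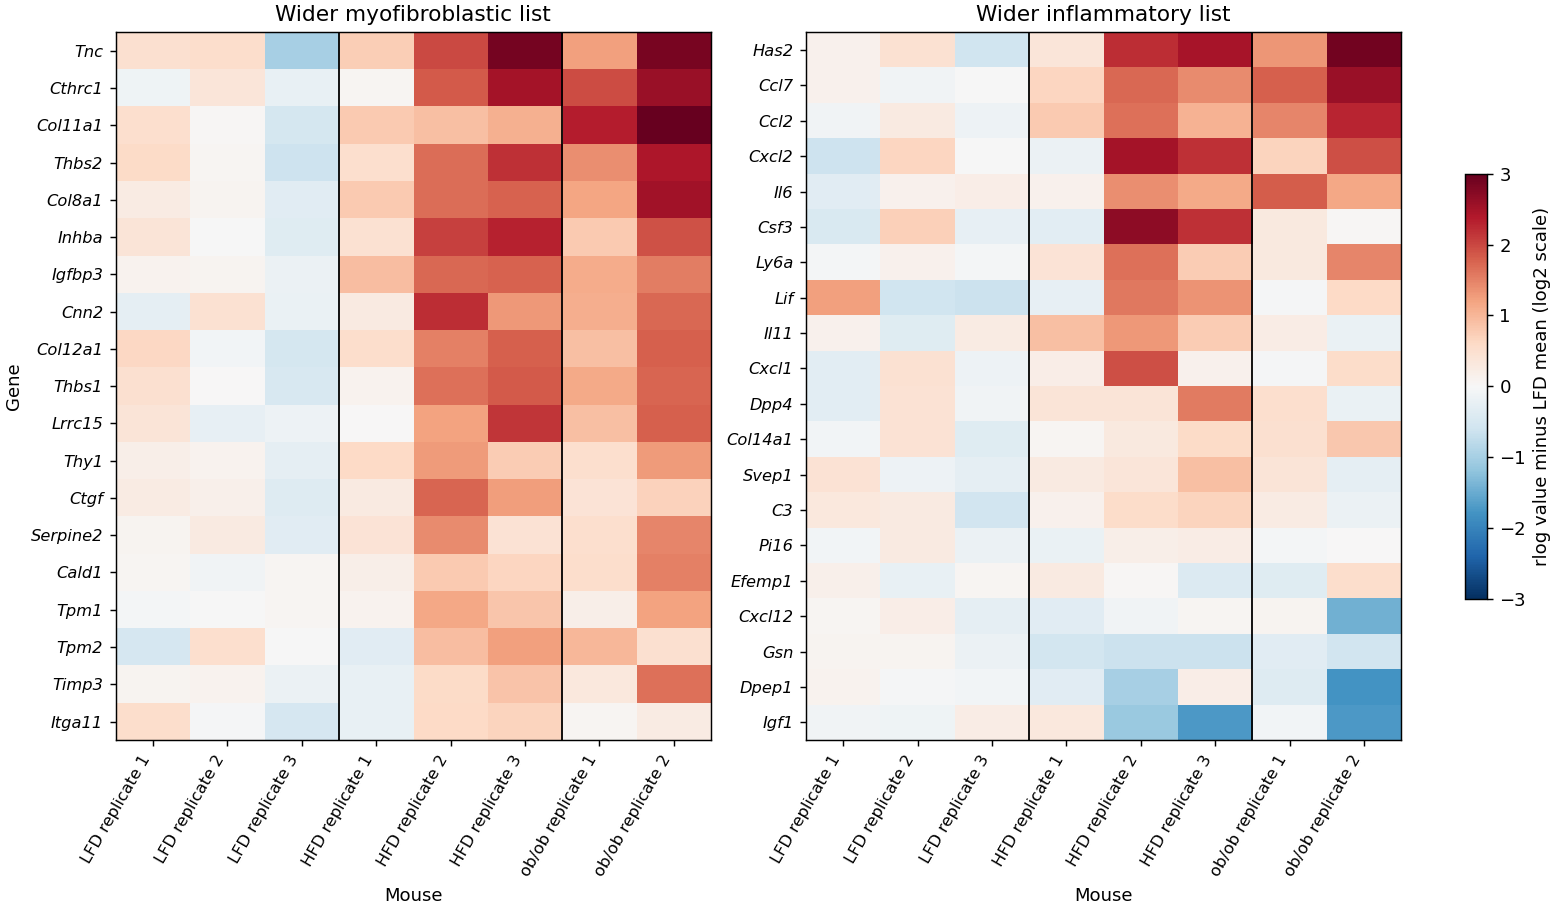
Rlog value minus the LFD mean (log2 scale, color) of 19 of the 20 further myofibroblastic and of 20 further inflammatory genes (rows, ordered by the mean of the obese mice) in 8 mice (columns), with colors ending at 3. HFD replicate 1 is paler than the other obese mice, and the wider inflammatory list holds genes of both directions.

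Upstream genes of both states were counted in fixed lists, beside 11.5% of all genes higher and 8.35% lower in HFD and 11.6% and 7.18% in ob/ob. With the acinar covariate 1567 of 15047 genes were called in HFD and 1494 in ob/ob, in either direction. Of 12 TGF-beta genes, 5 were higher in HFD and 4 in ob/ob at an unadjusted p-value under 0.05, and none was lower. Among the largest differences for both obese groups were those of Ltbp2 (1.67), which codes for a matrix protein of the latent TGF-beta binding family, and Tgfbi (1.61), a matrix protein gene induced by TGF-beta. The ligand gene Tgfb1 was at 5.82, 5.80 and 5.76 in LFD, at 5.63, 7.34 and 7.79 in HFD, and at 6.53 and 7.04 in ob/ob, so that HFD replicate 1 was the lowest of all mice (adjusted p = 0.186 for both groups with limma). With the acinar covariate none of the 12 was higher in HFD and 3 were in ob/ob. Of 14 IL1 and STAT3 genes, 6 were higher and 1 lower in HFD, and 5 were higher in ob/ob. Il1rn (the IL1 receptor antagonist, 1.74), Il1b (1.55) and Il1a (1.55) had the largest differences. Of 12 genes of SRF and actin, 3 were higher in HFD and 2 in ob/ob, among them the filamin gene Flna in ob/ob, at 12.1 and 13.4 against 10.8 to 11.7 in LFD. The calls in HFD ended with another scaling, since after median centring none of the 12 was higher and 1 was lower in HFD, against 2 and 1 for ob/ob. The acinar covariate left 1 higher and 1 lower in HFD and none in ob/ob, and of the IL1 and STAT3 genes 5 were higher in HFD and 2 in ob/ob. Srf itself was at 7.71, 7.79 and 7.67 in LFD and between 7.14 and 7.57 in the obese mice (difference -0.29, adjusted p = 0.282 with limma). Of 7 genes of antigen-presenting fibroblasts, 5 were higher in each obese group, led by Saa3, a serum amyloid gene, at 6.01, 6.43 and 6.19 in LFD and between 8.16 and 9.33 in the obese mice (adjusted p = 0.0598 for both groups with limma). Under the acinar covariate 3 of the 7 were higher in each group. Next after Saa3 were the MHC class II genes H2-Aa (1.19) and H2-Ab1 (1.16), and the part of leukocytes in these values was not tested. Slpi and Nkain4 were not called in either group. Nkain4 had a lower mean in both, with linear ratios to LFD of 0.631 for HFD and 0.505 for ob/ob.

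Markers of other cells were set beside them, and their counts stand against 11.5% of all genes higher and 8.35% lower in HFD and 11.6% and 7.18% in ob/ob. Of 13 smooth muscle and pericyte markers, 1 was higher in HFD and 1 in ob/ob, none was lower, and their mean was between 5.93 and 6.41 in LFD, 5.94 and 7.06 in HFD, and 6.19 and 6.34 in ob/ob. Myh11, the smooth muscle myosin heavy chain, was at 7.57, 8.55 and 6.66 in LFD, at 6.87, 6.79 and 8.55 in HFD, and at 7.35 and 6.91 in ob/ob, and Cnn1 was between 2.85 and 5.32. In HFD replicate 3, which had the highest Acta2, the smooth muscle mean was also the highest. LFD replicate 2, with the highest Acta2, Tagln and Myl9 of its group, had the highest smooth muscle mean, Myh11 and Cnn1 of its group as well. In ob/ob replicates 1 and 2, both above all LFD mice in Acta2 and Tagln, the smooth muscle mean (6.34 and 6.19) was inside the LFD range. The part of smooth muscle in the values of Acta2, Tagln and Myl9 was not tested. Of 12 endothelial markers, 1 was higher in HFD and none in ob/ob, with a mean between 7.36 and 8.11 in all mice. Of 6 mesothelial markers, 1 was higher and 2 were lower in HFD and 2 were lower in ob/ob. Muc16, Upk3b and Lrrn4 had the largest differences for both obese groups (-1.49, -1.30 and -1.05), while Msln was between 8.17 and 8.81 in LFD and between 8.37 and 10.4 in obese mice. Of 12 leukocyte markers, 6 were higher in HFD and 8 in ob/ob, and their mean was 7.17, 7.68 and 6.74 in LFD, 7.64, 8.21 and 8.30 in HFD, and 7.95 and 8.43 in ob/ob. Ptprc, the pan-leukocyte gene Cd45, was at 9.33, 9.87 and 8.57 in LFD and between 9.67 and 10.6 in obese mice, and the part of leukocytes in the values of the members was not tested. Of 8 adipocyte markers, 1 (Lep) was higher in each obese group, and Adipoq was between 7.14 and 8.03 in LFD and between 6.68 and 8.07 in obese mice. Of 7 ductal markers 3 were higher in HFD and 2 lower in ob/ob, of 7 islet markers none was called in HFD and 5 were higher in ob/ob, and of 26 acinar markers 3 were lower in HFD and 2 in ob/ob. Of 6 Schwann cell markers 3 were analysed, 1 of them higher and 1 lower in HFD and none called in ob/ob.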

How the data were processed

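Pancreas RNA of 8 mice was sequenced, and the labels name 3 LFD, 3 HFD and 2 ob/ob mice. The authors quantified paired-end reads with Salmon 0.11.3 on Gencode M18 (GRCm38.p6), summarized them per gene with tximport and deposited rlog values of DESeq2 1.22.2, which are on a log2 scale, for 15047 gene symbols. The filter behind this table is not given in the sources used here. Counts were not used here, so the depth is unknown and the spread between mice is the only error given.

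Group means of all 8 mice were fitted jointly in limma 3.58.1 (R 4.3.3) with a trended empirical Bayes variance, and p-values were adjusted over all genes (Benjamini-Hochberg, threshold 0.05). In simulated HFD against LFD data over 15047 genes, 0%, 32%, 98% and 100% of genes changed by 2, 4, 8 and 16 residual SDs were called. Of the unchanged genes 11 were called. The simulated noise was independent between genes, without the acinar content that genes share here, so these shares do not give the power in these data. Members and lists were chosen with earlier results of these data known. Lists give counts, with values for up to 3 genes with the largest difference between obese and LFD mice and for genes that define a cell type, and the genes nearest in pattern to a set (5) or a member (1) have a mean of at least 5. Genes of other lists named outside this rule are Gsn, Dcn, Tgfb1, Srf, Slpi, Nkain4, Lifr, Stat3, Jak1, Il6st, Osm, Osmr and Socs3. Some genes of the lists are counted but not reported here by name. Promoters came from RefSeq, coordinates and coding sequences from Gencode M21, another release on the same assembly. The alternatives were an untrended variance, a fit limited to the compared groups, a minimum mean of 5, median centring, quantile normalization, an acinar covariate, a replicate block, leaving out each mouse, and for sets of genes their median and smooth muscle genes as the reference. Leaving out both acinar-poor mice was added after seeing the data.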

Additional observations from a re-analysis of the deposited data

How the results depend on the processing

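Of 567 values of members under alternatives, 545 kept their direction and 22 turned it. An adjusted p-value under 0.05 with limma was reached by 10 values, all of Acta2, Tagln, Postn or Pdgfra. None of the turned values passed that threshold. Most of the values that passed came from the fit without HFD replicate 1. There, 3 myofibroblastic members passed for HFD, 1 for ob/ob, and 3 together with Pdgfra for both obese groups. In that fit 18.7%, 0.591% and 22.1% of all genes passed. In some other alternatives the adjusted p-values of these members rose above those of the main fit. With the acinar covariate, Myl9 (-0.060) and Clec3b (0.31) turned for HFD, Ly6c1 (0.16) for ob/ob, and Clec3b (0.0013) and Ly6c1 (0.039) for both obese groups, each against LFD. Quantile normalization turned Ly6c1 for ob/ob against LFD (0.0017). Without the 2 acinar-poor mice, Myl9 for HFD against LFD (-0.053), Ly6c1 for ob/ob against LFD (0.078) and Fap between ob/ob and HFD (-0.31) turned. With single mice left out, the differences that turned ranged between ob/ob and HFD from -0.0027 to 0.71 (Acta2), -0.13 to 0.69 (Tagln), -0.13 to 0.40 (Myl9), -0.28 to 0.61 (Fap) and -1.501 to 0.18 (Clec3b). Those against LFD ranged from -0.095 to 0.42 (Myl9, HFD), -0.078 to 0.084 (Ly6c1, ob/ob), -0.023 to 0.49 (Myl9, both groups) and -0.015 to 0.29 (Dpt, both groups).

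Genes with an adjusted p-value under 0.05 numbered 0 in all 4 comparisons. With only the compared groups in the fit they numbered 1 for HFD and 38 for ob/ob, each against LFD. The acinar covariate gave 1 for ob/ob against LFD, 1 between ob/ob and HFD and 1 for both groups, and the fit without the 2 acinar-poor mice 1 for HFD against LFD, 1 between ob/ob and HFD and 1 for both groups. With single mice left out the counts ranged from 0 to 2812 (HFD and LFD), 0 to 89 (ob/ob and LFD), 0 to 1 (ob/ob and HFD) and 0 to 3326 (both groups), where 2812 and 3326 came without HFD replicate 1. At an unadjusted p-value under 0.05 they ranged from 1480 to 5445, 752 to 4075, 369 to 1117 and 2037 to 5824. The acinar covariate gave 1567, 1494, 1194 and 1663, and leaving out the 2 acinar-poor mice 930, 344 and 1973 in the last 3. Between ob/ob and HFD the count was 389 among genes with a mean of at least 5 and 353 with only the compared groups. For both groups, 2186 genes were higher and 1639 lower, and 1823 and 2109 after median centring.

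With the median of the members, the inflammatory set differed by 0.44 (ob/ob and LFD), 0.43 (ob/ob and HFD) and 0.23 (both groups). With smooth muscle and pericyte genes as the reference, the myofibroblastic mean differed by 0.43, 0.92, 0.49 and 0.68 in the 4 comparisons, and the inflammatory mean by -0.42, -0.076, 0.34 and -0.25. Relative to the pan-fibroblast mean, the myofibroblastic difference without the 2 acinar-poor mice was 0.11 between ob/ob and LFD and 0.27 between ob/ob and HFD, and with single mice left out ranged from -1.03 to 0.11 and from -0.74 to 0.39. The cause of these shifts was not tested.

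Deviations of same-numbered mice from their group means had r from -0.281 to 0.592 over 7 pairs of mice, across genes. The highest r was that of HFD replicate 1 and ob/ob replicate 1. Centring within such small groups ties the deviations to each other, so these values cannot decide whether the numbers pair the mice. A replicate block gave 0 adjusted calls, and Fap between ob/ob and HFD was at -0.0042. The depth is unknown, and rlog values understate differences of genes with few reads.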
